A study of Rattus norvegicus with 18 samples.

Results

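The data described here are the ageing comparison under free feeding, in gastrocnemius muscle of male Brown Norway (BN/SsNOlaHSD) rats. It sets 6 aged rats fed AL (ad libitum), killed at 28 months, against 6 young rats fed AL, killed at 6 months. Its members are these 12 of the 18 libraries of the series, and the remaining 6 are aged rats kept on caloric restriction (CR). CR rats ate the same food as rats fed AL, in a restricted daily amount and within a short daily window. All rats were fed AL until 2 months of age, when they were housed singly and given their diet, and each library came from the muscle of 1 rat. Rats 1 to 6 are the young and rats 7 to 12 the aged animals. RNA-seq read counts were available for 32883 Ensembl gene identifiers of the Rnor_6.0 annotation, and 14086 of them had enough counts in the 12 libraries to be tested.

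The gastrocnemius is a large calf muscle that flexes the ankle and is built mainly of fast-twitch fibres, with vessels, nerve endings, connective tissue, resident immune cells and muscle stem cells between them. With age, mammalian muscle loses mass and force, a state called sarcopenia, and loss of fibres and of their nerve supply, infiltration by immune cells and fat, and decline of mitochondria are its well-known features. Freely fed old rodents are the usual model for it. The sequenced RNA is that of the whole muscle, so fewer cells of a type and less RNA per cell cannot be told apart. The table gives each gene by identifier, position and exon lengths only, and the gene lists at hand could not be paired with these identifiers. Genes are therefore described by position on the Rnor_6.0 build and by size, and the tissue label was not checked against marker genes.

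Total counts were between 19940496 and 24474703 in young rats and between 17335401 and 23351719 in aged rats. None of 5 library measures differed between the groups past the threshold in two-sided exact permutation tests, with adjusted p from 0.487 to 0.628 (n = 6 a group, smallest p possible 0.00216). One aged library stood apart. In rat 8 the 20 most abundant genes took 16.8% of counts, against 21.8% to 30.1% in the other aged rats and 25.6% to 30.9% in the young. Its median distance to the other aged rats was 0.51 on the log2 scale, against 0.20 to 0.33 for the rest of that group. Among the young, rats 1 and 2 had far more counts on the mitochondrial ribosomal RNA positions than any other rat, as given further on. Library numbers ran in separate blocks for each group, so if the groups were handled apart, handling and age cannot be told apart.

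Aged muscle differed from young muscle in 258 genes, which is 1.83% of the genes tested, of which 145 rose with age and 113 fell. These genes passed both an adjusted p of at most 0.05 (edgeR quasi-likelihood test, Benjamini-Hochberg adjustment over all genes tested) and a fold change of at least 1.5. The genes that rose were low in young muscle, with a median level of 2.60 CPM in young and 11.2 CPM in aged rats, where CPM are counts relative to the scaled library total. The genes that fell had a median of 37.1 CPM in young and 16.3 CPM in aged rats. These levels are not corrected for gene length. Rises were larger than falls, with a median log2 fold change of 1.99 (median SE 0.38) for the former and -1.19 (median SE 0.22) for the latter. In all, 72 of the genes that rose and 6 of those that fell changed at least 4-fold.

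**Figure D1:**
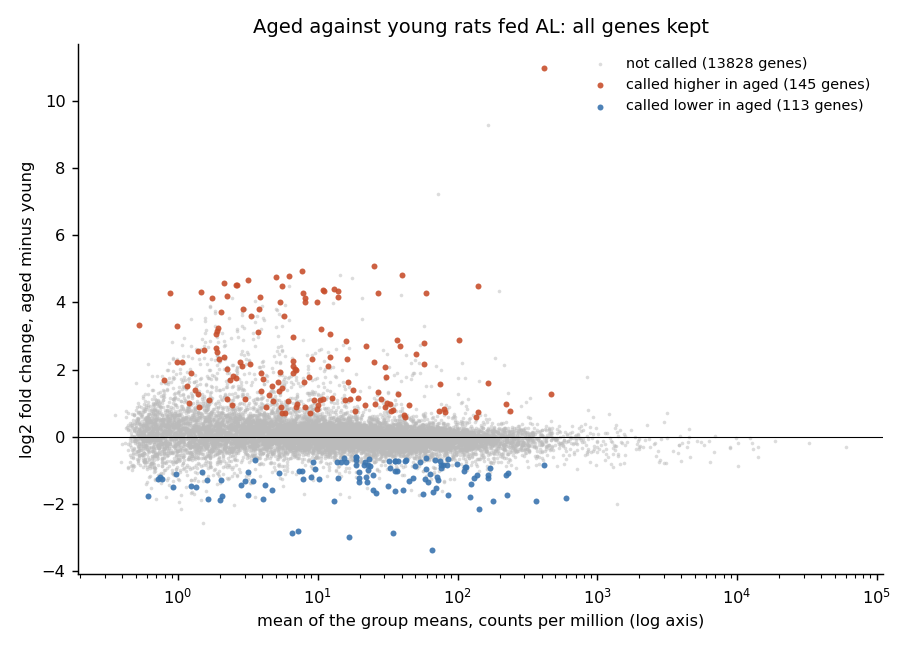
Log2 fold change (aged minus young rats fed AL) against the mean level of each of the 14086 genes tested, in CPM on a log axis. Red points are the 145 genes called higher and blue points the 113 called lower, and the genes called higher lie mainly at low levels and reach larger fold changes.

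The median log2 fold change over all genes tested was 0.016. Before adjustment, 2741 genes had a p under 0.05. At the other end of the scale, 26 of the genes that rose were under 1 CPM in every young rat, and 7 of the genes that fell were under 1 CPM in every aged rat. The aged rats were less alike than the young over the genes that rose, with a median SD of 0.75 on the log2 scale against 0.37. These logs include an added 0.5 CPM, which narrows the spread of low values, and these genes were lower in young rats. How far this altered the contrast was not tested. Over the genes that fell, the spread was 0.31 in aged and 0.36 in young rats. Over all genes the median SD was 0.33 in aged and 0.25 in young rats, and without rat 8 it was 0.23 in aged rats.

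A stricter reading asks whether all 6 aged rats lay on 1 side of all 6 young rats. This held for 349 genes, or 2.48% of those tested, 191 with the aged rats on top and 158 with the young. Among the called genes, 69 of the 145 that rose (47.6%) and 83 of the 113 that fell (73.5%) showed no overlap. The same values entered the calls, so these shares are a description. Leaving out each rat in turn kept 45 of the rises and 52 of the falls in all 12 fits.

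The gene with the lowest p among the rises was ENSRNOG00000032922, which spans chr2:144646308-144936927 on the plus strand in 20 exon blocks with 10327 exonic bases. Its level in young rats was 10.4 CPM at the lowest, 13.8 CPM at the median and 21.6 CPM at the highest. In aged rats the lowest was 40.2 CPM, the median 108 CPM and the highest 143 CPM. Every aged rat was above every young rat, and rat 7 was the lowest of the aged group. The mean rose from 14.4 ± 3.90 to 100.6 ± 38.5 CPM (SD, n = 6 each), a 6.98-fold difference (log2 2.80, SE 0.28, adjusted p = 0.000932 by the edgeR quasi-likelihood test). The span overlaps the spans of other annotated genes on both strands, and counting did not use the strand. Whether the counted exons of these genes overlap was not checked.

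ENSRNOG00000036885, at chr2:248451547-248484100 on the minus strand with 12 exon blocks, went from near absence to a low level. Young rats had 0.0437 CPM at the lowest, 0.0888 CPM at the median and 0.18 CPM at the highest, from 1 to 3 reads a library. Aged rats had 0.711 CPM at the lowest, 0.928 CPM at the median and 1.38 CPM at the highest, from 14 to 24 reads a library. All aged rats were well above all young ones in spite of the low counts. The log2 fold change was 3.34 (SE 0.35, adjusted p = 0.000932 by the same edgeR test). Over the summed reads, 11 in young and 118 in aged rats, the ratio was 10.7 with a 95% interval from 5.78 to 22.1 (exact binomial), which covers counting error only.

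Among the falls, ENSRNOG00000055401 had the lowest p. It lies at chr1:102414625-102456411 on the plus strand and has 4 exon blocks. Its level in young rats was 8.94 CPM at the lowest, 10.1 CPM at the median and 23.8 CPM at the highest, and in aged rats it was 1.04, 1.91 and 2.43 CPM in the same order. The groups were far apart, and rat 1 stood above the remaining young rats. The mean fell from 12.6 ± 5.72 to 1.79 ± 0.539 CPM (SD, n = 6 each), with a log2 fold change of -2.80 (SE 0.29, adjusted p = 0.000932 by edgeR).

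ENSRNOG00000014448, at chr1:178039063-178137465 on the plus strand with 21 exon blocks, had the steadiest values of these genes. Young rats had 53.4 CPM at the lowest, 64.3 CPM at the median and 70.6 CPM at the highest. Aged rats had 17.5 CPM at the lowest, 26.6 CPM at the median and 34.8 CPM at the highest. The 2 groups did not overlap. The mean fell from 64.2 ± 6.43 to 25.7 ± 6.66 CPM (SD, n = 6 each), a log2 fold change of -1.32 (SE 0.16, adjusted p = 0.00235 by edgeR).

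**Figure D2:**
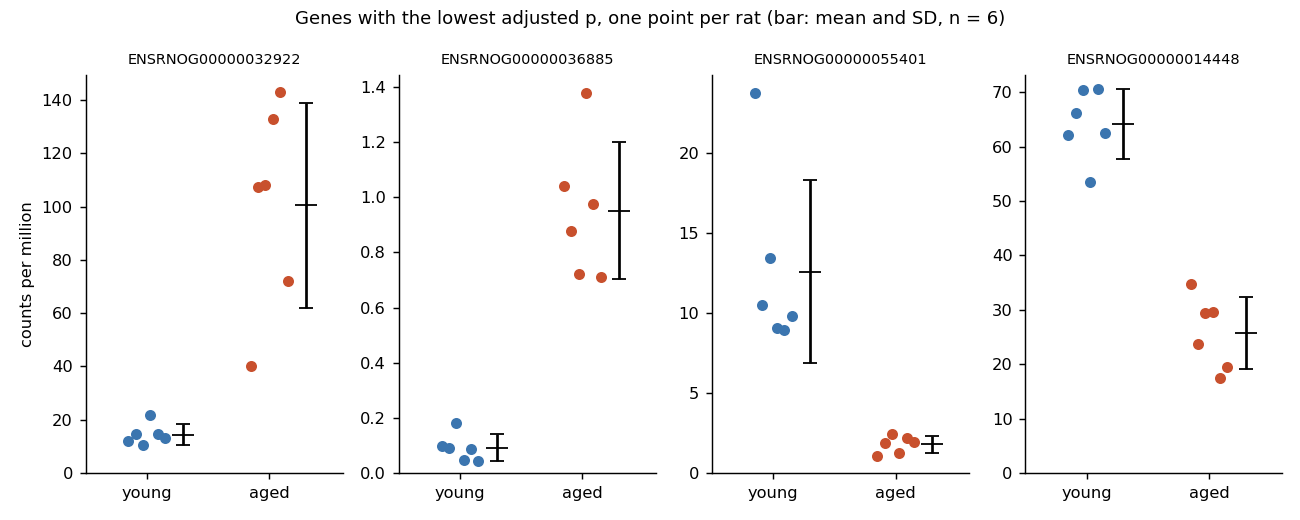
Level of the 4 named genes, in CPM on axes that start at 0, with 1 point for each young (blue) and aged (red) rat and the mean with its SD (n = 6) beside them. No gene has overlapping groups, and the aged rats of ENSRNOG00000032922 run from 40.2 to 143 CPM.

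The 10 rises and 10 falls of lowest p were chosen on these same 12 libraries, so how they separate the rats is a description of that choice. All 20 had groups that did not overlap and were called in all 12 fits that left out a rat. Log2 fold changes of the 10 rises ran from 0.80 to 4.01 and came from 9 chromosomes, and those of the 10 falls from -2.99 to -1.23 and came from 8 chromosomes. Their levels were spread widely, with young means from 0.0913 to 271.9 CPM for the rises and from 3.17 to 933.1 CPM for the falls.

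The 145 rises were divided, after the calls and on the same values, by which aged rat had the highest level. The peak of each set at its own rat follows from that division, and the sets are given as a description. In 53 of them rat 9 had the highest level of the aged rats and in 55 it was rat 8, which left 37 for the other 4 aged rats. For the 53 genes led by rat 9, taking rat 9 as 100%, the median level was 47.0% in rat 12, 41.7% in rat 10, 15.4% in rat 7, 11.5% in rat 8 and only 3.52% in rat 11. The last value lies within the range of the young rats, which ran from 2.05% in rat 1 to 5.64% in rat 3. Rat 11 was the lowest aged rat in 33 of these 53 genes, and rat 3 the highest young rat in 30 of them.

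These 53 genes held most of the large fold changes. Their median log2 fold change was 3.60 (median SE 0.71), and 42 of them rose at least 4-fold. In 12 of the 53 the groups did not overlap. Without rat 9, 18 of the 53 were still called, but all 53 were called without rat 8 and 45 without rats 8 and 9. Without rats 1 and 2, the lowest of the young by this profile, 5 were called. Of all 145 rises, 77 were called without rat 9, 141 without rat 8 and 113 without rats 8 and 9. Leaving out rats 1 and 2 kept 32 of the 145. Whether these transcripts were made by muscle cells was not tested, as no gene could be named.

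In the 55 genes led by rat 8, rats 7 and 9 to 12 lay close together, at medians of 41.6% to 53.2% of rat 8, and young rats at 16.5% to 23.2%. In 40 of the 55 the groups did not overlap, and the median log2 fold change was 1.36 (median SE 0.27). Without rat 8, 51 of them were still called, but 34 without rat 9, 36 without rats 8 and 9 and 14 without rats 1 and 2. In the remaining 37 genes the aged rats had medians from 47.5% to 97.8% of their highest rat, and 17 of these genes showed no overlap. Without rats 1 and 2, 13 of the 37 were called.

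**Figure D3:**
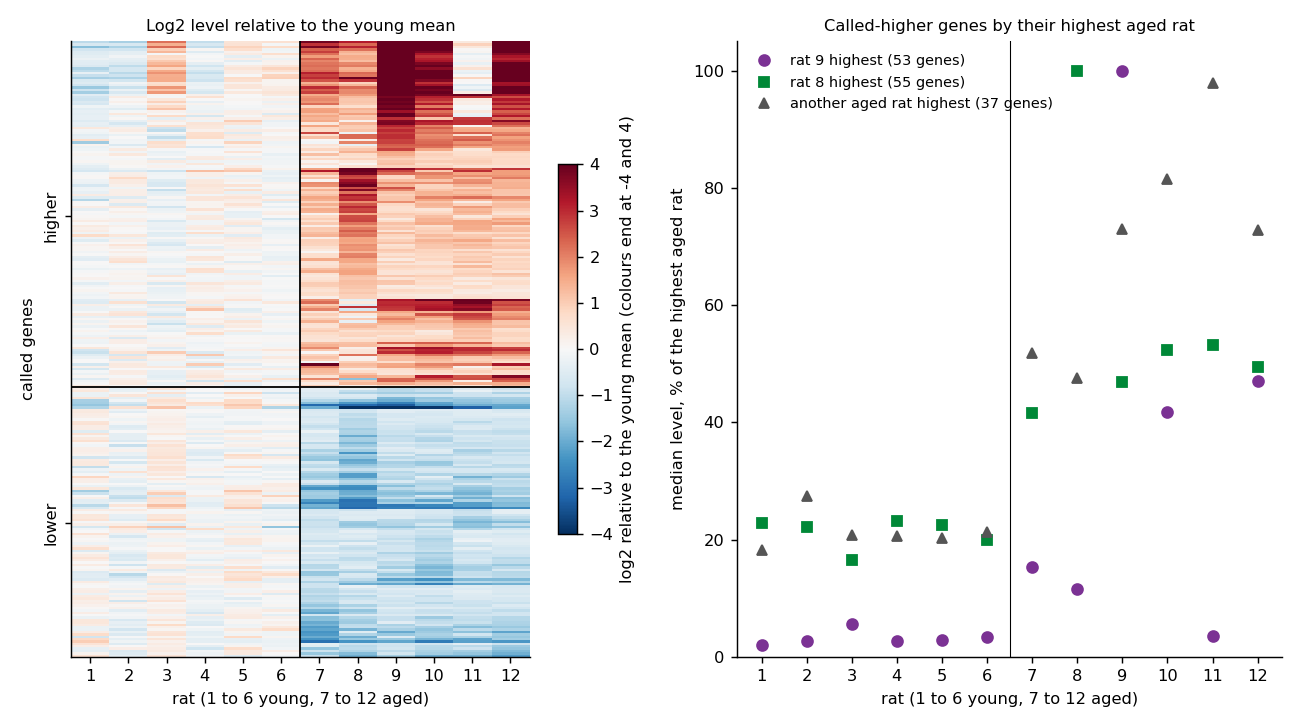
Left, log2 level of the 258 called genes in each rat relative to the mean of the young rats, with genes in rows (rises above, falls below) ordered by the aged rat with the most extreme value, and colours that end at -4 and 4. Right, median level of the genes called higher in each rat as a percentage of the highest aged rat, for the 53 genes led by rat 9, the 55 led by rat 8 and the other 37, where rat 11 lies at 3.52% in the first set.

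Rat 8 also carried 2 extreme values among the rises. A gene at chr4:98337367-98523473, with 11 exon blocks, reached 4938 CPM in rat 8 and 2.19 to 9.66 CPM in the other aged rats, against 0.0978 to 1.03 CPM in young rats. Its log2 fold change was 10.97 (SE 2.49) with rat 8 and 3.72 without it, and it was called in both fits (edgeR adjusted p = 0.0389 and 0.00117). The second, at chr1:264160129-264172729, reached 1323 CPM in rat 8 and 21.1 to 96.5 CPM in the other aged rats. Young rats had 5.41 to 24.2 CPM of this gene, so the groups overlapped. Its log2 fold change went from 4.49 to 2.31 without rat 8 and was called in both fits. Both loci were picked after their values were seen. All called rises together took 1.52% of the counts of rat 8, against 0.418% to 0.632% in the other aged rats and 0.139% to 0.203% in young rats. These 2 genes took 0.873% of the counts of rat 8, and the other 143 took 0.650% in rat 8, slightly less in rat 9, 0.407% to 0.496% in the other 4 aged rats and 0.138% to 0.201% in young rats.

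Together the 113 falls took 0.760% to 1.04% of counts in young rats and 0.353% to 0.455% in aged rats, with no overlap, which the choice of these genes fixes. The lowest aged rat was rat 8 in 42 of them (37.2%), rat 7 in 24, rat 10 in 23, rats 9 and 11 in 9 each and rat 12 in 6. Among the rises rat 8 was the highest aged rat in 37.9% and rat 9 in 36.6%. The median fall by rat ran from -0.92 in rat 9 to -1.14 in rat 8 on the log2 scale, relative to the young mean.

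Called genes lay on 21 of the chromosomes. Over all genes tested, 1.03% rose and 0.802% fell. On chromosome 2, 17 of 917 tested genes rose (1.85%) and 3 fell (0.327%), and the 2.18% called in all was near the 1.83% of all genes. Its calls ran from 7 without rat 6 to 47 without rat 8 (32 rises, 15 falls). They were also fewer by over 1.5 times without each of rats 1, 3, 4, 5, 9, 10 and 12. Without rats 1 and 2 they came to 6 rises and 5 falls, and DESeq2 called 38 higher and 21 lower. On chromosome 5, 5 of 918 genes rose (0.545%) and 18 fell (1.96%). Its 23 calls went to 41 without rat 8 (17 rises, 24 falls). They went to 13, 13, 12, 9, 8, 9 and 8 without rats 1, 3, 5, 6, 9, 10 and 12 in that order. With scaling by total counts 11 rose and 10 fell there, and DESeq2 called 19 higher and 25 lower. The highest share of calls by chromosome in this fit was on chromosome 20, at 4.36% of 413 genes (11 rises, 7 falls), and its calls ran from 11 without rat 6 to 32 without rat 8. For the autosomes and the X chromosome, median log2 fold changes ran from 0.05 below that of all genes on chromosome 12 to 0.06 above it on the X chromosome.

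On chromosome 20, 12 of the 18 calls lay at its start, where the rat major histocompatibility complex (RT1) lies. This region is known for the genes of antigen presentation, by which cells show peptides to T cells, and also holds complement, stress and many unrelated genes. Of the 143 genes tested in the first 6 Mb, 10 rose and 2 fell, or 8.39%, against 2.22% of the 270 tested genes on the rest of the chromosome (1 rise, 5 falls). The contrast was smaller in some other fits. As shares of the same 143 and 270 genes, limma voom called 14.7% in the region and 10.0% on the rest (21 and 27 genes), and DESeq2 called 20 and 19 genes. The shares were 10.5% and 6.30% without rat 8 (15 and 17 genes), 8.39% and 3.70% without rats 8 and 9 (12 and 10), and without rat 6 there were 6 and 5 calls. Calls on the rest ran from 3 without rat 1, 3 or 12 to those 17 when 1 rat was left out. Of the 143 genes 14 (9.79%) had groups that did not overlap, against 2.48% of all genes. The 12 called genes were among those without overlap, as were 58.9% of all called genes. The median log2 fold change over the 143 genes was 0.08, and it was 0.05 without rat 8, 0.12 without rat 9 and 0.17 without rats 1 and 2. Relative to all genes, the median of the region was 0.05 to 0.28 in aged rats and -0.13 to 0.10 in young rats, and the groups overlapped. The limit of 6 Mb was set after the values were seen.

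The rise with the lowest adjusted p of the region was at chr20:5374985-5378539 on the plus strand, with 8 exon blocks. Young rats had 31.7 CPM at the lowest, 35.6 CPM at the median and 50.8 CPM at the highest, and aged rats 77.4, 109 and 165.6 CPM. The groups were clearly apart, with rat 8 the highest of the aged. The log2 fold change was 1.57 (SE 0.18, edgeR adjusted p = 0.00203). It lies within the span of another gene on the same strand, chr20:5351605-5421098, which rose from 151.4 ± 22.9 to 295.5 ± 92.1 CPM (SD, n = 6 each, log2 0.96, SE 0.19).

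Neighbouring rises were at chr20:3979035-3989669, with 11 exon blocks, and chr20:3990613-3993769, with 4. The first had 8.04 CPM at the lowest, 9.57 CPM at the median and 12.4 CPM at the highest in young rats, and 14.6, 21.4 and 54.3 CPM in aged rats. The second went from 3.87 ± 1.02 to 12.1 ± 7.65 CPM (SD, n = 6 each). In both, rat 8 was the highest aged rat and the rest stood between it and the young. Their log2 fold changes were 1.40 (SE 0.27) and 1.64 (SE 0.34).

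Nearest the chromosome end, the gene at chr20:154074-157861 rose from 17.6 ± 2.74 to 38.6 ± 11.3 CPM (SD, n = 6 each, log2 1.14, SE 0.18, edgeR adjusted p = 0.00696). The gene at chr20:3146856-3150852 was low, at 0.175 to 1.01 CPM in young and 1.03 to 4.60 CPM in aged rats, and its log2 fold change was 2.56 (SE 0.48).

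Both falls of the region were large. A gene of 1 exon at chr20:4877324-4879779 had 42.5 CPM at the lowest, 117 CPM at the median and 218 CPM at the highest in young rats. In aged rats it had 3.36, 8.11 and 24.5 CPM. Young rats differed widely among themselves and still did not meet the aged ones. The log2 fold change was -3.36 (SE 0.59, edgeR adjusted p = 0.0130), the largest fall of all called genes. It sits within the span of the gene at chr20:4694472-4896970, which rose (log2 1.11, SE 0.22). The other fall, at chr20:4956541-4958492, went from 11.4 ± 7.23 to 1.58 ± 0.71 CPM (SD, n = 6 each, log2 -2.85, SE 0.44), and it overlaps a gene on the opposite strand.

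**Figure D4:**
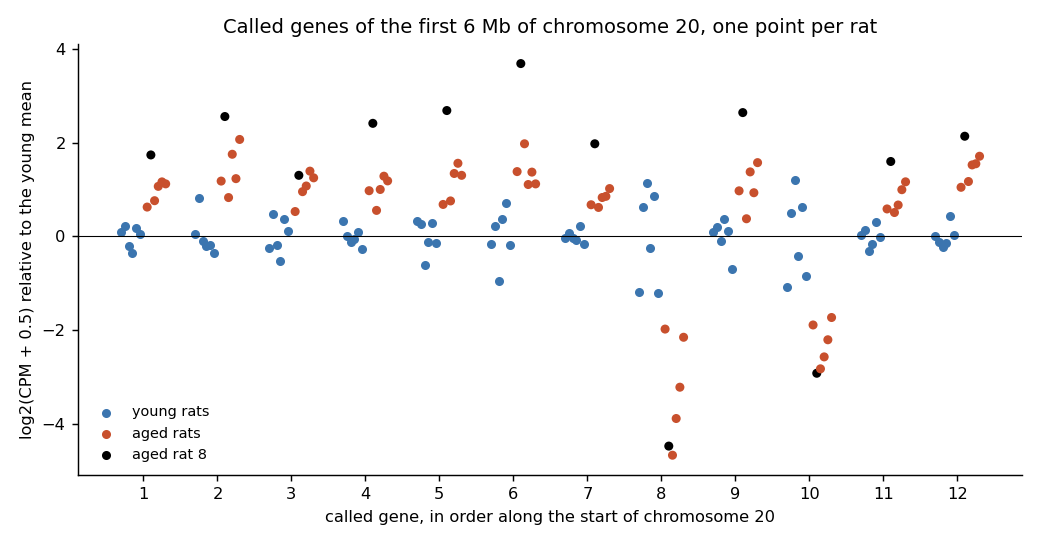
Level of the 12 called genes of the first 6 Mb of chromosome 20 in each rat, as log2(CPM + 0.5) relative to the mean of the young rats, in order along the chromosome. Young rats are blue, aged rats red and rat 8 black, which is the highest aged rat in 9 of the 10 rises, and the falls are the genes in places 8 and 10.

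Rat 8 was the highest aged rat in 9 of the 10 rises of the region. Without rat 8 all 12 genes were called, and without rats 8 and 9 together all 12 were called too. Without young rats 1 and 2, 6 of the 12 were called. Of all 258 calls, 253 were kept without rat 8, 193 without rats 8 and 9 and 88 without rats 1 and 2. Leaving out young rat 6 alone also left 6 calls in the region, and without any other single rat there were 9 to 15. The signs of all 12 were the same under every alternative in which they were tested.

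Runs of at least 3 called genes of 1 direction, each within 500 kb of the last, were found at 4 places after the values were seen, of which the start of chromosome 20 was 1. As runs were defined by their calls, the counts in them are a description. On chromosome 5 the run of chr5:159207273-159931090 held 6 falls among 17 tested genes and no rise, against 0.802% of all genes tested that fell. The fall with the highest CPM, at chr5:159428515-159471144 with 16 exon blocks, had 232.5 CPM at the lowest, 302 CPM at the median and 502.3 CPM at the highest in young rats. In aged rats it had 68.0, 84.9 and 173.1 CPM, and the highest aged rat, rat 7, was below the lowest young one. The log2 fold change was -1.74 (SE 0.27, edgeR adjusted p = 0.0068).

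The remaining falls of this run had log2 fold changes from -1.32 to -0.59. All 6 falls had groups that did not overlap, as did 73.5% of all called falls. Of all genes tested, 1.12% were lower in aged rats without overlap. The gene at chr5:159540421-159583049, with 39 exon blocks, fell from 12.5 ± 2.21 to 6.49 ± 1.09 CPM (SD, n = 6 each). Of the 6, 3 were called in all 12 fits that left out a rat, and the others in 3, 3 and 1 of them. Without rats 8 and 9, 4 were called, and without rats 1 and 2 only that at chr5:159428515-159471144.

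A run of 3 rises among 5 tested genes lay at chr6:127327959-127711212, against 1.03% of all genes tested that rose. All 5 had positive log2 fold changes. Of the 3 rises, 2 were called in all 12 fits that left out a rat, and 2 without rats 1 and 2. The strongest, at chr6:127696252-127711212 with 5 exon blocks, had 0.538 CPM at the lowest, 0.981 CPM at the median and 1.35 CPM at the highest in young rats, and 3.49, 16.3 and 26.3 CPM in aged rats. Rat 7 was the lowest aged rat and still above every young one. The log2 fold change was 4.01 (SE 0.52, edgeR adjusted p = 0.00353). Its neighbour at chr6:127336305-127337791 rose from 3.95 ± 1.12 to 20.7 ± 15.9 CPM (SD, n = 6 each, log2 2.39, SE 0.38).

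The last run, on chromosome 16, held 3 adjacent genes of like build, with 22 or 23 exon blocks and 2944 to 3030 exonic bases, between chr16:6970342 and chr16:7026540. The first of them, at chr16:6970342-6985579, had 0.184 CPM at the lowest, 0.84 CPM at the median and 3.66 CPM at the highest in young rats, and 1.06, 13.9 and 86.5 CPM in aged rats. The groups overlapped in all 3 genes, because rat 11 was within the young range, and rat 9 was the highest in each. Their log2 fold changes were 4.39 (SE 0.98), 3.07 (SE 0.71) and 3.12 (SE 0.67), with edgeR adjusted p from 0.0305 to 0.0418. All 3 followed the profile of the 53 genes led by rat 9. None was called in every fit that left out a rat. All 3 were called without rat 8 and without rats 8 and 9, and none was called without rats 1 and 2.

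Of 99 genes with a mean above 1000 CPM, 0 were called, where 1.83% of all genes were. An unadjusted p under 0.05 in edgeR was found for 16 of them (16.2%), against 19.5% of all genes, and the lowest adjusted p was 0.0531. DESeq2 called 8 of them, 7 lower and 1 higher. In 80 of the 99 the log2 fold change was negative, with a median of -0.24. Rat 7 or rat 8 was the lowest aged rat in 88 of them, and the median of these genes relative to the young mean was -1.26 in rat 8, -0.37 in rat 7 and between -0.20 and 0.07 in the other aged rats. Without rat 8 the median log2 fold change was -0.11 and 2 of these genes were called lower. Scaling by total counts also called 2 lower.

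The nuclear gene with the highest mean CPM, not corrected for length, was at chr10:53713938-53848347 with 121 exon blocks. It had 42811 CPM at the lowest, 60238 CPM at the median and 104950 CPM at the highest in young rats, and 23121, 59893 and 81889 CPM in aged rats. The groups overlapped over most of their range and the medians were nearly equal (log2 -0.30, SE 0.40, edgeR adjusted p = 0.724). The next, at chr19:56674074-56677084, had medians of 35045 CPM in young and 33792 CPM in aged rats, and only rats 7 and 8 were below the young range, at 24745 and 10973 CPM.

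Mitochondrial DNA encodes core subunits of the respiratory chain, the transfer RNAs and both ribosomal RNAs of the organelle. Of its 26 tested genes 0 were called, where 1.83% of all genes were, and all but 2 had a negative log2 fold change. By edgeR 5 of the 26 (19.2%) had an unadjusted p under 0.05, near the 19.5% of all genes. DESeq2 called 1 transfer RNA-size gene lower, and limma voom and the fit without rat 2 called 1 mitochondrial gene each. Of the 13 genes of protein-coding size, 12 had a negative log2 fold change, with a median of -0.37, a lowest of -0.90 and a highest of 0.11. Their share of all counts was 2.34% to 5.20% in young and 2.23% to 5.88% in aged rats. The highest share of all was in aged rat 11 and the lowest in aged rat 8, so the groups overlapped fully. Without rats 8 and 9 the median was -0.20 and without rats 1 and 2 it was -0.61.

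The genes at positions 68 to 1025 and 1094 to 2664, where the ribosomal RNA genes lie on the mitochondrial map, separated rats 1 and 2 from the rest. They took 3.10% and 2.85% of counts in rats 1 and 2, against 0.341% to 0.886% in the other young and 0.662% to 0.977% in aged rats. Ribosomal RNA was depleted before sequencing. Their median log2 fold change of -1.43 became 0.05 without rats 1 and 2. Of the 22 genes of transfer RNA size, 11 had enough counts and 10 of these had a negative log2 fold change, with a median of -0.87. Relative to all genes, the median of these 11 was 1.01 in young rat 4 and -0.84 to 0.27 in the other young rats. In aged rats it was -0.61 to -0.12, so the groups overlapped.

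Median log2 fold changes differed between size classes of the nuclear genes in this fit, while the rats of each group varied widely. The median log2 fold change went from 0.13 for genes with up to 200 exonic bases, through 0.02 at 2000 to 4000 bases, to -0.17 for the 342 genes with over 8000 bases, of which 3 rose and 5 fell (2.34% called, near the 1.83% of all genes). The value of the shortest class rested on single rats, running from -0.01 without rat 7 to 0.21 without rat 9, with 0.06 without rat 8 and -0.02 without rats 1 and 2. That of the longest class stayed below 0 when any 1 rat was left out, from -0.26 without rat 8 to -0.11 without rat 3, while its calls ran from 3 without rat 1 to 23 without rat 2. The spread between rats was as wide as these differences. Relative to all genes, the median of the longest class was -0.36 to -0.22 in rats 9 to 12, -0.01 in rat 7 and 0.10 in rat 8. In young rats it was -0.37 in rat 2 and -0.09 to 0.29 in the others. A young and an aged rat thus lay at nearly the same lowest value, and the groups overlapped. With scaling by total counts only, the median of the longest class was 0.02, where that of all genes was 0.18.

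**Figure D5:**
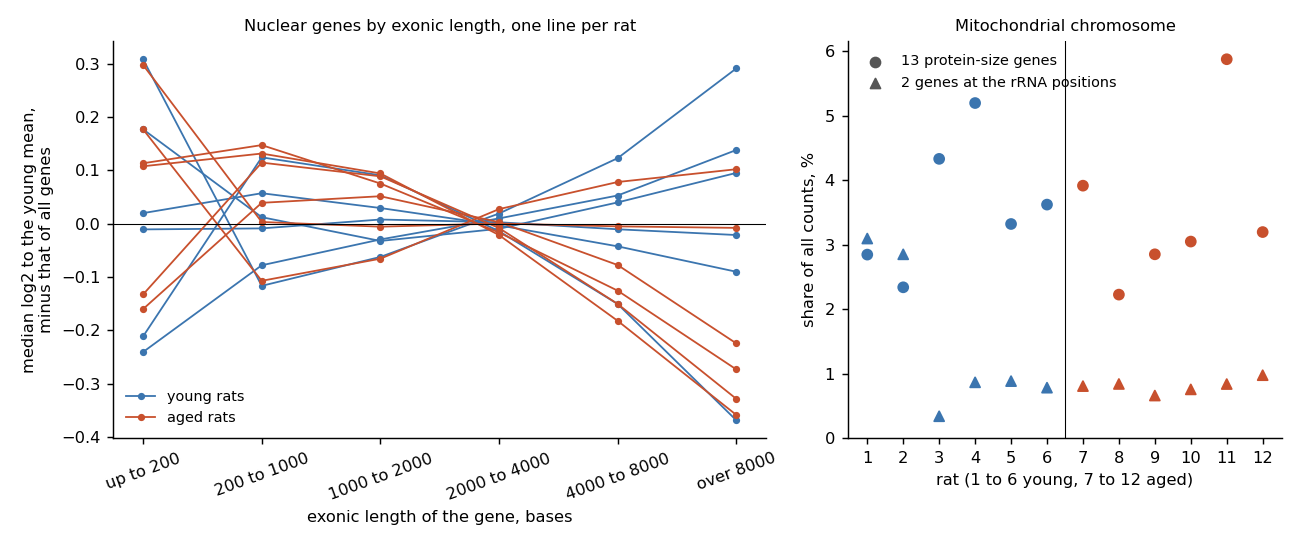
Left, median log2 level of nuclear genes relative to the young mean, minus that of all genes, by exonic length, with 1 line for each young (blue) and aged (red) rat, where 4 aged rats and young rat 2 lie lowest for the longest genes. Right, share of all counts on the 13 mitochondrial genes of protein-coding size (circles) and on the 2 at the ribosomal RNA positions (triangles), which reaches 3.10% and 2.85% in young rats 1 and 2.

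For the 4 named genes the change with age was set beside the aged CR rats, in a fit of all 18 libraries with the edgeR quasi-likelihood test. Both comparisons use the same aged rats fed AL, so they are not independent. The 4 genes were chosen for a difference in those same rats, which favours a CR value nearer to that of young rats, so the p-values below are no separate support. In this fit 1.38% of the genes tested were called between the aged groups. ENSRNOG00000032922 was at 20.9 ± 7.07 CPM in aged CR rats (SD, n = 6), and the aged rats fed AL were at 98.5 ± 37.8 CPM on the same scale (log2 -2.24, SE 0.28, adjusted p = 0.000539). ENSRNOG00000055401 averaged 6.30 ± 2.45 CPM under CR at 28 months, above the 1.76 ± 0.527 CPM of the aged rats fed AL (log2 1.83, SE 0.31, adjusted p = 0.00607).

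ENSRNOG00000014448 went the other way. It fell with age under free feeding and was lower still in aged CR rats, at 7.34 ± 2.06 CPM (SD, n = 6) against 25.2 ± 6.53 CPM (log2 -1.78, SE 0.18, edgeR adjusted p = 7.85e-05). For ENSRNOG00000036885 the difference between the aged groups was -1.14 on the log2 scale (SE 0.36) and did not pass the threshold (edgeR adjusted p = 0.116).

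Single rats moved the number of calls. It ran from 122 without rat 6 to 518 without rat 8, and was 156, 164 and 143 without young rats 1, 3 and 5 and 148, 152 and 129 without aged rats 9, 10 and 12. Which direction had more calls was not stable. Falls outnumbered rises without young rats 1 (71 rises, 85 falls), 2 (151 and 188), 4 (87 and 88), 5 (70 and 73) or 6 (52 and 70), without rats 1 and 2 together (43 and 88), under the stricter limit of 0.01 for adjusted p (26 and 28), and by limma voom (353 and 441). DESeq2, run without the count filter on 28367 genes, called 465 higher and 401 lower. Of the 258 genes, 255 were among them in the same direction.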

How the data were processed

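The deposited table holds raw counts of sequenced fragments per gene, made by the authors from paired-end HiSeq reads of strand-specific libraries depleted of ribosomal RNA. Per the file headers and the submitters' processing notes, reads were trimmed with cutadapt 1.2.1, aligned with STAR 2.3.0e and counted with featureCounts 1.6.4 on Rnor_6.0, annotation 96, without strand. Exon lengths in the table served only to class genes by size.

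Rats were grouped by the labels, and 0 columns of sample values were left out. For 3 aged CR columns only the group was certain. Genes were kept by filterByExpr in edgeR 4.0.16 (R 4.3.3), scaled with TMM factors and tested with the quasi-likelihood test on the 12 libraries only. Standard errors are the log2 fold change divided by the root of F. CPM values are TMM-scaled, and a pseudocount of 0.5 CPM was added before logs of single rats. Library measures had two-sided exact permutation tests with adjustment over the 5 measures. DESeq2 1.42.0, limma 3.58.1, other scalings, filters, thresholds and rats left out were alternatives. The study itself used DESeq2.

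The comparison and the gene lists were chosen with earlier results of these data known. Of the identifiers, 0 could be matched to symbols in the RefSeq gene list, so the pathway, marker and promoter lists planned were not used, and no sequence is shown. By the rule kept for that case, the 2 identifiers with the lowest adjusted p in each direction are named (ties by p). Other loci, runs and the 6 Mb region were chosen after values were seen. On simulated counts for this comparison (13971 genes, 200 changed), 63% of 2-fold and 91.7% of 4-fold changes were called. Of those calls, 5.62% were unchanged genes. These rates describe the simulated counts only. In the real libraries calls ran from 122 to 518 when a single rat was left out. How far the simulated rates hold for libraries that vary in this way was not tested.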

Additional observations from a re-analysis of the deposited data

Results flagged for a closer look

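Of 38 groups of 6 values checked for a lone extreme value by the share of the range that separates it from the nearest rat (Dixon, 95%), 3 stood out, where chance would give about 1.9. Young rat 1 had 23.8 CPM of ENSRNOG00000055401, and the next young rat 13.5 CPM. The gene was called without rat 1 too. Aged rat 8 had 1.52% of its counts on the genes called higher, and the next aged rat 0.632%. Of that share, 0.873% lay on 2 genes, and on the other 143 rat 8 had 0.650%, with rat 9 slightly lower. In the first 6 Mb of chromosome 20, the median gene of rat 8 was 0.28 on the log2 scale above the young mean relative to all genes, and the next aged rat was at 0.11.

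Aged CR rats differed from aged rats fed AL in 3 of the 4 named genes, by the edgeR test of these groups in the fit of 18 libraries (n = 6 a group). The genes were chosen for a difference in these same aged rats fed AL, so this is no independent support. There are no young CR rats, so a change with age under CR was not measured. The log2 difference was -2.24 for ENSRNOG00000032922 (adjusted p = 0.000539), 1.83 for ENSRNOG00000055401 (adjusted p = 0.00607) and -1.78 for ENSRNOG00000014448 (adjusted p = 7.85e-05). DESeq2 called the same 3.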

How the results depend on the processing

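Against the 258 calls (145 higher, 113 lower), DESeq2 called 866 (465 higher, 401 lower), limma voom with sample quality weights 794 (353 and 441) and the fit of all 18 libraries 497 (275 and 222). DESeq2 was run without the count filter, on 28367 genes where the main fit tested 14086. Its total is therefore not over the same genes. An adjusted p of at most 0.01 left 54 (26 and 28) and glmTreat 43 (23 and 20), as stricter thresholds must. Scaling by total counts called 247 (177 higher, 70 lower), with the median of all genes at 0.18, and upper-quartile factors 284 (180 and 104). With no filter on low counts 203 rose and 106 fell. Without rats 1 and 2, chosen after seeing the data, 131 were called (43 and 88). Leaving out 1 rat at a time gave 122 to 518 calls, 52 to 292 higher and 58 to 226 lower. Genes without overlap went from 349 to 683 without rats 8 and 9, where fewer rats have to separate. Beyond thresholds and fewer rats, the cause of these shifts was not tested. RLE factors, a mean of at least 1 CPM, robust shrinkage, no fold minimum and leaving out mitochondrial genes kept all 3 counts within 1.5 times. The 4 named genes kept direction and call under every alternative in which they were tested. No paired analysis was possible because the labels number the rats through all groups and share no number between them. Depth limits genes of a few reads a library, as ENSRNOG00000036885 in young rats.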
